A study of Mus musculus with 10 samples.

Results

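Ribosomal DNA transcripts and the RNA components of 7SK, 7SL, RNase MRP and RNase P particles were followed through 10 libraries of mouse testes at postnatal day 21 (P21). They were 7 named RNAs: CT010467.1 and Gm26917, which lie on a copy of ribosomal DNA, the 7SK RNA gene Rn7sk, the 7SL RNA genes Rn7s1 and Rn7s2, the RNase MRP RNA gene Rmrp and the RNase P RNA gene Rpph1. The symbol Rmrp is carried by 2 gene IDs, so that 8 of the 55421 gene IDs in the count files belonged to these RNAs. They were matched by symbol. The RNAs were chosen by their reads in MOV10 CLIP-seq and the ratio of those reads to RNA-seq in these same libraries, and CLIP-seq values are therefore given as a description, without a test. The wild type RNA-seq levels entered that ratio, so that a choice by it favours low wild type levels, and the genotype values of the chosen RNAs share this limit.

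The study asked which RNAs the helicase MOV10 binds in the testis and how the transcriptome changes when it is absent. CLIP-seq, in which ultraviolet light links a protein to the RNA it touches before the protein is recovered with an antibody, was performed on wild type P21 testes in 4 libraries, numbered 1, 2, 3 and 5. RNA-seq was performed on 3 wild type and 3 Mov10-/- libraries of P21 testes, 1 pair of testes each. Mov10-/- mice were global knockouts made with Actb-Cre, which is active in all tissues, from a floxed allele that lacks part of the helicase region after recombination. The mice were on a mixed background of 129, C57BL/6 and FVB. The CLIP-seq libraries came from 2 positions of the membrane, the main band and the region above it, and which library holds which position is not stated. Nothing in the labels says that CLIP-seq libraries came from separate animals.

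These RNAs are all made in the nucleus, and some of them, 18S and 7SL among them, work in the cytoplasm. RNA polymerase I transcribes ribosomal DNA into a long precursor, from which the spacers are cut away to leave 18S and the other ribosomal RNAs. 7SK RNA, a product of RNA polymerase III, holds the elongation factor P-TEFb inactive together with HEXIM and LARP7 proteins. 7SL RNA is the scaffold of the signal recognition particle, which brings ribosomes to the endoplasmic reticulum and is assembled in part in the nucleolus. RNase MRP cuts the ribosomal RNA precursor, and RNase P removes the leader of transfer RNA precursors. None of these RNAs carries the long poly(A) tail by which the RNA-seq kit picks messenger RNA. MOV10 is mainly a cytoplasmic protein.

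Sequences are shown first because the position and strand of each gene set which reads could be counted on it. They are from the GENCODE M21 transcripts, on GRCm38 (mm10). CT010467.1 is annotated as ribosomal RNA on the minus strand of chromosome 17. One of its transcripts in that set is an exon of 1849 bases whose ends, read on the plus strand, are the known ends of 18S ribosomal RNA, so that the gene as annotated is the reverse complement of 18S. The lines below give both ends on both strands.

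CT010467.1, first bases as annotated, chr17:39848157-39848201, minus strand: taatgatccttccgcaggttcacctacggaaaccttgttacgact
The same bases on the plus strand, the end of 18S: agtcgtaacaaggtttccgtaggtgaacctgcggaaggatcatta
CT010467.1, last bases of that exon as annotated, chr17:39846353-39846397, minus strand: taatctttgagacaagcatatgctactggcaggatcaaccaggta
The same bases on the plus strand, the start of 18S: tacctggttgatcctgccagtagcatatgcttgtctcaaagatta

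Gm26917, annotated as a lincRNA, is a single exon of 3329 bases on the plus strand (chr17:39843013-39846341). It ends 11 bases before the first base of 18S, which is the place of the external transcribed spacer of the precursor. Its GC content was 69.1%, a value reached by 0.249% of the 141767 annotated transcripts, whose median was 49.2%. Its last bases show this composition.

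Gm26917, last bases, chr17:39846282-39846341, plus strand: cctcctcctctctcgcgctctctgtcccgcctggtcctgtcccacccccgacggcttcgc

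2 further annotated genes share this locus. Gm42418, a lincRNA on the plus strand (chr17:39846958-39848788), covers 1244 bases of 18S and runs on past its end, and 1822 of its 1831 bases lie under exons of CT010467.1. AY036118, on the minus strand, lies wholly inside CT010467.1. Only the first 605 bases of 18S are outside Gm42418.

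**Figure D1:**
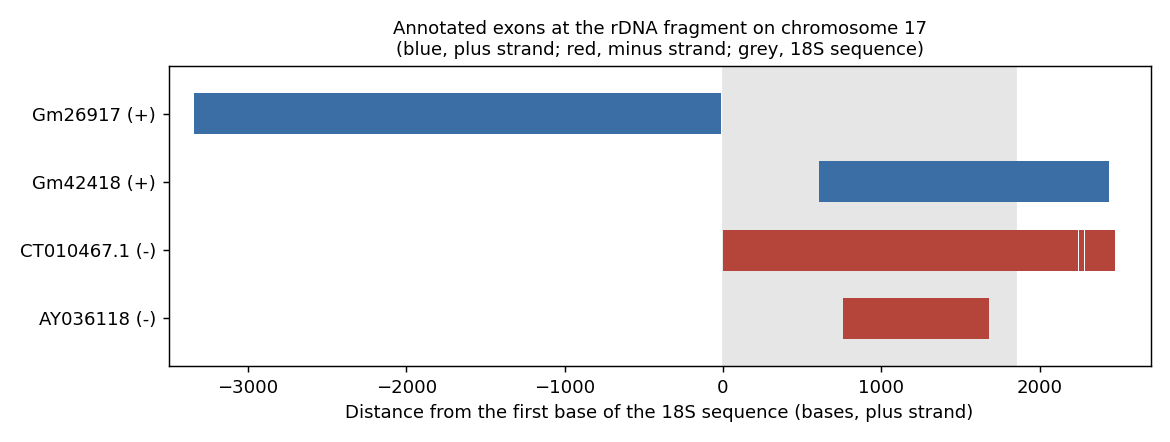
Annotated exons of the 4 genes at the ribosomal DNA copy on chromosome 17, drawn to scale against the distance in bases from the first base of 18S on the plus strand. Gm26917 ends 11 bases before 18S, Gm42418 begins 605 bases into it on the same strand, and CT010467.1 and AY036118 lie on the opposite strand.

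Both 7SL genes lie on chromosome 12 and are identical in 300 of 300 bases, so that a read inside the transcript cannot be assigned to one of them by its sequence. On each, 147 bases lie under annotated miRNA genes of the same strand.

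Rmrp is annotated under 2 IDs that share 271 bases, in capitals, and 10 bases of the longer one are free of the other. Rpph1 has 233 of its 319 bases, in capitals where shown, under an exon of Ccnb1ip1 on the same strand.

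Rmrp, chr4:43492783-43493063, minus strand: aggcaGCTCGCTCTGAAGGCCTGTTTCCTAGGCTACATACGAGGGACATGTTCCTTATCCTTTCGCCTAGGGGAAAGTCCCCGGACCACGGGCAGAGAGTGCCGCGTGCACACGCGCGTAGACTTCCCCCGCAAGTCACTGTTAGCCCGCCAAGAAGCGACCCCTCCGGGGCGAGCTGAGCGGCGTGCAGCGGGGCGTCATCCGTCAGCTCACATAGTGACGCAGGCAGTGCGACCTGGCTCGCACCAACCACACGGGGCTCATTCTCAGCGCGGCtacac
Rpph1, first bases, chr14:50807688-50807767, minus strand: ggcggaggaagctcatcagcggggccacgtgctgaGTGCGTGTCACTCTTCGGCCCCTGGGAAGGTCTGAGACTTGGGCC
Rpph1, last bases, chr14:50807449-50807528, minus strand: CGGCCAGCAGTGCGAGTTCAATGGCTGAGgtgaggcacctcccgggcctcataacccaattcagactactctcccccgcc

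Rn7sk (chromosome 9) overlaps no other annotated exon. The nearest gene, C920006O11Rik, lies 280 bases away on the other strand.

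Rn7sk, first bases, chr9:78175514-78175633, minus strand: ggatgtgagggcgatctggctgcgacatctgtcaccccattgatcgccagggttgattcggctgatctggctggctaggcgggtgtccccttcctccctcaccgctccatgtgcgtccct

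Genes nested under exons of the other strand had reads in RNA-seq but not in CLIP-seq. A count made without regard to strand puts reads on 2 overlapping genes under ambiguous, and 439 genes in the files lay wholly under exons of the opposite strand. Of these, 185 had wild type RNA-seq reads, 8910 in all, and 0 had a CLIP-seq read. Of the 19 with at least 100 wild type reads 0 had a CLIP-seq read, against 20.5% of the 10703 such genes free of other exons. Ambiguous reads were 5.62% to 5.89% of the reads on genes or ambiguous in CLIP-seq and 1.52% to 1.67% in RNA-seq. The strand setting of either count is not given in the sources used here, and its part in the values of this locus was not tested.

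The depth of the assays differed widely. Between 5083407 and 9230540 reads per library lay on genes in RNA-seq, and between 3404 and 4934 in CLIP-seq, with 99.5% to 99.6% of all reads listed as not aligned. Levels are given as RPM, the reads of a gene scaled to 1000000 reads counted on genes. In CLIP-seq 1 read stood for 203 to 294 RPM. The counts of CLIP-seq replicates 1, 2 and 3 lay closer together than sampling noise allows for separate libraries (a chi-square of 0.219 to 0.237 per degree of freedom), so these libraries were counted as 1 sample, by their mean, wherever libraries are averaged. Replicate 5 differed from them at 1.63 to 1.93. In RNA-seq, 31.1% to 57.2% of reads were not aligned in Mov10-/- libraries and 26.5% to 30.3% in wild type. Mov10 itself fell from 110 ± 14.8 to 27.5 ± 2.22 RPM (SD, n = 3), a log2 fold change of -1.999 with an adjusted p of 0.00552 in edgeR's quasi-likelihood test.

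In CLIP-seq the ribosomal DNA transcripts held nearly all of the reads on the named RNAs. These counts hold only reads placed once. Whether reads of other ribosomal DNA copies were placed on this copy, or left out as not unique, was not tested. Gm26917 had 102, 79, 84 and 93 reads in replicates 1, 2, 3 and 5, and in each library it was the gene with the most reads of all. These were 2.58% (95% Wilson interval 2.13% to 3.13%), 2.31% (1.86% to 2.87%), 2.47% (1.998% to 3.04%) and 1.88% (1.54% to 2.30%) of the reads on genes. The intervals of all 4 libraries overlap; they cover counting error only, as do all intervals and limits here.

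CT010467.1 had 17, 16, 17 and 41 reads in the same libraries and ranked between 4th and 6th among all genes. Its share was 0.431% (0.269% to 0.689%), 0.467% (0.288% to 0.758%), 0.499% (0.312% to 0.798%) and 0.831% (0.613% to 1.13%). Replicate 5 was the highest, with an interval that overlaps the others. Replicate 5 was also the library in which mt-Rnr1, the small ribosomal RNA of mitochondria, stood out, at 0.892% (0.665% to 1.19%) against 0.146% to 0.152% in the others, while mt-Rnr2, the large one, took 1.02% to 1.15% in all 4.

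Gm42418 had 0 reads in each CLIP-seq library, which allows a share of up to 0.0608% to 0.0881%. At its wild type RNA-seq level, 2.04 reads would fall on it among the 15710 CLIP-seq reads of the 4 libraries, fewer than the 3 reads that a count of 0 allows, so that no shortfall was detectable at this depth. Only 9 of its 1831 bases are free of CT010467.1, and in a count without strand the reads on the others would be ambiguous at any depth. At their own wild type levels Gm26917 would have had 1.42 reads and CT010467.1 0.275, where 358 and 91 were counted. Of the 2466 bases of CT010467.1, 644 are free of other genes on both strands. If the CLIP-seq count, unlike the RNA-seq count, was made without strand, the values of CT010467.1 would rest on unlike reads. This was not tested. No control for background was analysed here, neither a CLIP-seq library from knockout testes nor one with a control antibody. The wild type RNA-seq is a comparison only, since its kit picks RNA by a long poly(A) tail, which these RNAs lack. The reads given above for a wild type level rest on that selection too.

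**Figure D2:**
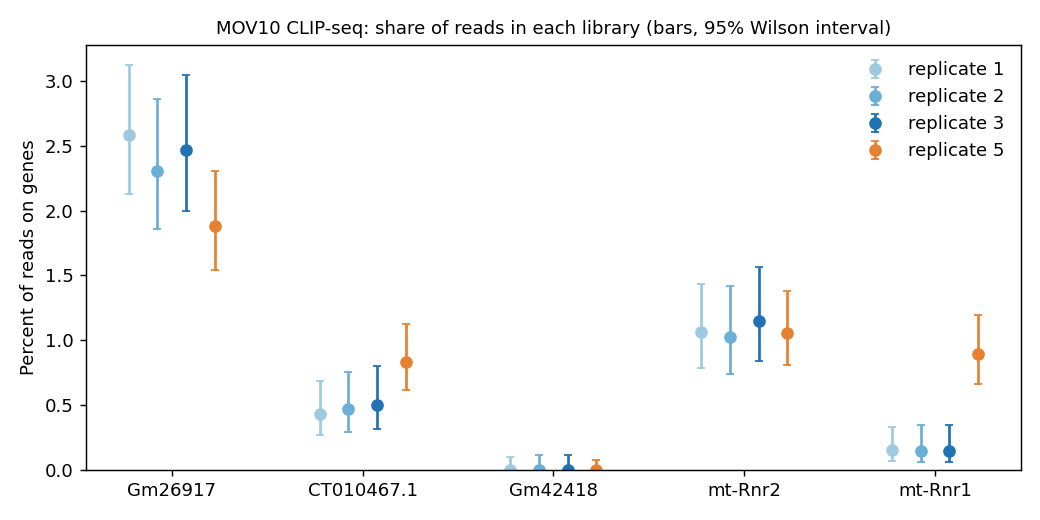
Share of the reads on genes taken by each RNA in the 4 MOV10 CLIP-seq libraries, with 95% Wilson intervals. Gm26917 took 1.88% to 2.58% and CT010467.1 0.431% to 0.831%, Gm42418, which has 9 bases free of CT010467.1, had no reads, and mt-Rnr1 was higher in replicate 5 than in the other libraries.

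The 7SK, 7SL, RNase MRP and RNase P RNAs had 1 CLIP-seq read in all, at RNA-seq levels where fewer than 1 would be counted. Rn7sk had 0, 0, 0 and 1 read, and at its wild type RNA-seq level 0.119 reads would be counted in the 4 libraries together. Rn7s1 and Rn7s2 had 0 reads in each library, where 0.0288 would be counted on Rn7s2. A count of 0 allows up to 608 to 881 RPM, far above the 1.83 RPM of Rn7s2 in wild type RNA-seq. A shortfall against that level was not detectable at this depth. The RNA-seq levels come from a kit that picks RNA by a long poly(A) tail, so the level of these RNAs in the testis is not known here. Neither binding nor its absence is read from these counts. Since the 7SL genes are identical, a read placed on both is not counted on either, and 41.1% to 44.4% of aligned CLIP-seq reads were listed as not unique; the part of such reads in these zeros was not tested. Both Rmrp IDs and Rpph1 had 0 reads in all 10 libraries. For Rmrp and Rpph1 these zeros are read beside the shared bases above, and no level is given.

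The quotient of CLIP-seq and wild type RNA-seq levels in RPM was computed where both assays held 10 reads or more. It could be formed for 2 of the 8 IDs, CT010467.1 and Gm26917. Both were above 10, as were 39.9% of the 268 genes with a ratio, and the choice of the RNAs used this measure. CT010467.1 ranked 11th and Gm26917 13th. For CT010467.1 the limit of strand given above applies to the ratio too. The RNA-seq kit picks RNA by a long poly(A) tail, which these RNAs do not carry, and no such step is described for CLIP-seq. The ratio is therefore no measure of enrichment over the RNA present in the testis. The part of this selection in the ratio was not tested. The size of the ratio depended on the scaling and on the wild type library. With all reads placed once as the total it was 77.5 for CT010467.1 and 44.6 for Gm26917, and with TMM over both assays 87.7 and 53.8, against 371 and 240 over reads on genes. Over wild type replicates 1, 2 and 3 it was 490, 986 and 199 for CT010467.1, and 279, 482 and 147 for Gm26917. Wild type replicate 3 gave the lowest ratio for both, and without it the mean ratio of CT010467.1 was 654 in place of 371. Across CLIP-seq libraries it ranged from 246 to 476 for CT010467.1 and from 209 to 286 for Gm26917. Of all genes tested in RNA-seq, 18.1% had at least 1 CLIP-seq read, as had 3 of the 4 named RNAs tested, a count on which the choice also rests.

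Other RNAs without a long poly(A) tail also had CLIP-seq reads. The 1385 annotated small nuclear RNA genes held 373 reads on 68 genes, which is 23050 to 25409 RPM per library against 54.1 to 67.7 RPM in wild type RNA-seq. The 1558 small nucleolar and Cajal body RNA genes held 64 reads on 17 genes. By contrast, the other 353 ribosomal RNA genes of the annotation held 3 reads, and the other 559 genes of the class that holds 7SK and 7SL held 6, of which Rny1, a Y RNA, and Vaultrc5, a vault RNA, had 3 each. The 3 reads on ribosomal RNA genes lay on 3 genes, 1 of them n-R5s33, a 5S ribosomal RNA gene.

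RNA-seq levels in P21 testes spanned a wide range. Per kilobase of exon, mean wild type RPM was 70.8 ± 2.90 for Gm42418 (SD, n = 3), 27.1 ± 15.8 for Gm26917, 22.9 ± 3.04 for Rn7sk, 7.09 ± 5.48 for CT010467.1, 6.11 ± 1.63 for Rn7s2 and 0.397 ± 0.688 for Rn7s1. Gm26917 and Rn7sk, as well as CT010467.1 and Rn7s2, did not differ beyond their spread. Values of Rn7s1 and Rn7s2 leave out reads placed on both genes, which are identical, and are not levels of 7SL RNA as a whole. In Mov10-/- testes the order by RPM per kilobase of exon was the same, with 103 ± 29.0, 64.2 ± 25.8, 32.9 ± 7.67, 22.0 ± 13.5, 12.1 ± 3.23 and 1.22 ± 0.777. There the mean ± SD of every pair of neighbours in the order overlapped, except Rn7s2 and Rn7s1. Of the 2466 bases by which the level of CT010467.1 was divided, 923 were shared with AY036118 on the same strand, and of the 300 bases of each 7SL gene 147 with miRNA genes. Divided by the bases free of such genes (chosen after seeing the data), the level of Rn7s2 was 12.0 and that of CT010467.1 was 11.3 RPM per kilobase in wild type, and CT010467.1 was at 35.1 against 32.9 for Rn7sk in Mov10-/- testes, so that these neighbours change places.

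Mean levels of the ribosomal DNA transcripts were higher in Mov10-/- than in wild type testes, but the libraries of each genotype varied widely and none of the differences passed the threshold in edgeR. Gm26917 had 77.9, 45.0 and 148 RPM in wild type replicates 1, 2 and 3 and 167, 313 and 161 RPM in Mov10-/- replicates 2, 3 and 4. All Mov10-/- libraries were above all wild type libraries, with wild type replicate 3 close below the lowest. The mean was 214 ± 85.8 against 90.2 ± 52.5 RPM (SD, n = 3), a log2 fold change of 1.25 (SE 0.43) with an adjusted p of 0.205 in edgeR's quasi-likelihood test.

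CT010467.1, counted on the strand opposite to 18S, had 13.2, 6.58 and 32.6 RPM in wild type and 38.1, 92.5 and 32.0 RPM in Mov10-/- testes. The groups overlap, since wild type replicate 3 was above Mov10-/- replicate 4. The mean was 54.2 ± 33.3 against 17.5 ± 13.5 RPM, a log2 fold change of 1.64 (SE 0.61) with an adjusted p of 0.230 in edgeR. By DESeq2 it passed, with a log2 fold change of 1.66 and an adjusted p of 0.0468.

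Gm42418, the annotated gene on the sense strand of 18S, had 126, 127 and 136 RPM in wild type and 155, 250 and 162 RPM in Mov10-/- testes. The groups do not overlap, and the wild type libraries lay much closer together than for the neighbouring genes. The log2 fold change was 0.54 (SE 0.20), with an adjusted p of 0.229 in edgeR.

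Rn7sk had 7.99, 6.45 and 8.34 RPM in wild type and 9.93, 13.8 and 8.97 RPM in Mov10-/- testes. The groups do not overlap, although the gap between them was small. The log2 fold change was 0.52 (SE 0.29), with an adjusted p of 0.401 in edgeR. Rn7s2 had 1.67, 1.45 and 2.38 RPM in wild type and 3.31, 4.72 and 2.87 RPM in Mov10-/- testes, again without overlap. Its log2 fold change was 0.97 (SE 0.38), with an adjusted p of 0.247. Rn7s1 had 3, 0 and 0 reads in wild type and 3, 3 and 1 in Mov10-/- libraries, under the filter and near or under a floor of 3 reads, so that no fold is given.

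Of the 4 named RNAs that passed the filter, each above 1 RPM in all 6 libraries, 0 passed both thresholds of the call in edgeR (a change of over 2-fold, an adjusted p below 0.05), as did 0.00494% of the 20240 genes tested. This background is that of the fit used here, and the paper reports far more genes with edgeR at the same limits. At an unadjusted p under 0.05, 3 of 4 were higher in Mov10-/- testes, against 5.57% of all genes. The groups did not overlap, with the Mov10-/- libraries higher, for 3 of 4, against 11.9% of all genes. DESeq2 called 1 of them higher, against 0.28% of the genes to which it gave an adjusted p. The wild type levels entered the choice of the RNAs and 2 of the RNAs lie on 1 locus, so that nothing is read from these counts against their backgrounds.

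**Figure D3:**
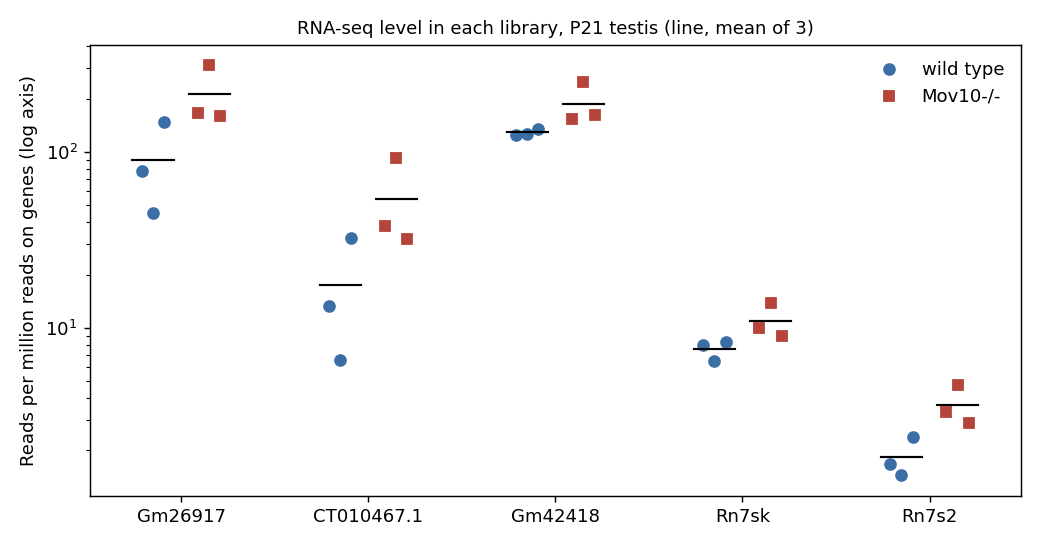
RNA-seq level of each RNA in each of 3 wild type and 3 Mov10-/- P21 testis libraries, in RPM on a log axis, with the mean of each group as a line. Mov10-/- replicate 3 is the highest for all 5 RNAs, and wild type replicate 3 is the highest of the wild type libraries for all 5.

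The size of the differences depended on single libraries of both genotypes. Mov10-/- replicate 3 was the highest library for Gm26917, CT010467.1, Gm42418, Rn7sk and Rn7s2, and it was also the library with 57.2% of its reads not aligned. Without it the log2 fold change was 0.84 for Gm26917, 0.98 for CT010467.1, 0.28 for Rn7sk and 0.71 for Rn7s2. Leaving out wild type replicate 2, the lowest library for these 4 RNAs, also lowered it. It was then 0.95 for Gm26917, 1.26 for CT010467.1, 0.43 for Rn7sk and 0.84 for Rn7s2. Without wild type replicate 3 it was 1.80 for Gm26917, 2.45 for CT010467.1, 0.58 for Rn7sk and 1.19 for Rn7s2. The direction was the same without each of the 6 libraries in turn. The part of the unaligned reads in the result was not tested.

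**Figure D4:**
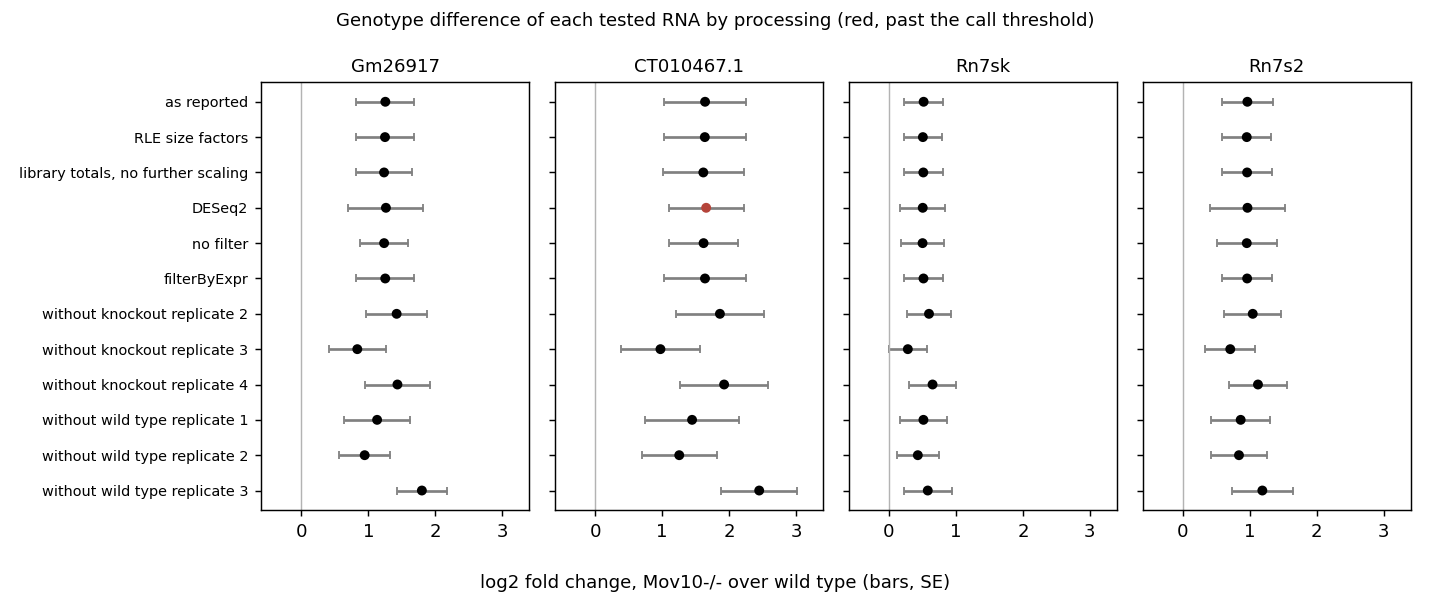
Log2 fold change of the 4 tested RNAs, Mov10-/- over wild type, as reported and with other scalings, tests, filters and each library left out (the fit with the replicate number as a block is not drawn), with bars for the SE and red for values past both thresholds of the call. Every value is above 0, the lowest for each RNA came without knockout replicate 3, and of the values drawn CT010467.1 by DESeq2 is the one past the thresholds.

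Gm26917 and CT010467.1 followed each other across libraries. Over the 6 RNA-seq libraries the log2 levels of Gm26917 and CT010467.1 had a Pearson r of 0.998, and each was the gene most like the other among 20240. Next to CT010467.1 came Scap (0.996), a protein that escorts SREBP, and the small nucleolar RNA Gm25117 (0.994). Next to Gm26917 came Mier2 (0.996) and the histone gene Hist1h4d (0.995). The genes most like Rn7sk were Hcfc1r1 (0.997), Podxl2 (0.996) and Cyc1 (0.996), and those most like Rn7s2 were Agap3 (0.998), Pcx (0.997) and the pseudogene Tpd52-ps (0.997). With 6 libraries in 2 genotypes that share depth and preparation, values this high are found among many genes and are given as a description.

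Between CT010467.1 and Gm42418, which face each other on opposite strands of 18S, r was 0.817. Within a library, reads on CT010467.1 were 0.105, 0.0516 and 0.240 of those on Gm42418 in wild type and 0.246, 0.370 and 0.198 in Mov10-/- testes, and the ranges overlap. Gm26917 had 5.88, 6.84 and 4.53 reads for each read on CT010467.1 in wild type and 4.40, 3.38 and 5.04 in Mov10-/- testes. In CLIP-seq the same quotient was 6.00, 4.94, 4.94 and 2.27 in replicates 1, 2, 3 and 5. For the 3 quotients among Gm26917, CT010467.1 and Gm42418, a two-sided exact permutation test between genotypes gave p = 0.2 to 0.3 (adjusted p = 0.3 for each), and 0.1 is the smallest p that 3 against 3 libraries allow.

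Other RNAs without a long poly(A) tail were also higher in the Mov10-/- libraries. The summed level of mt-Rnr1 and mt-Rnr2 was 229 to 292 RPM in Mov10-/- and 143 to 200 RPM in wild type libraries. Small nuclear RNA genes summed to 71.4 to 96.8 against 54.1 to 67.7 RPM, and small nucleolar and Cajal body RNA genes to 187 to 317 against 78.9 to 173 RPM. In none of these 3 sums did the groups overlap. mt-Rnr2 had a log2 fold change of 0.55 (SE 0.16), with an adjusted p of 0.165 in edgeR. For the other genes of the 7SK and 7SL class, the sums of 32.2 to 43.9 and 28.6 to 36.2 RPM overlap, as do those of the other ribosomal RNA genes, at 11.5 to 16.1 and 8.35 to 11.9 RPM. Rny1 was at 3.08 ± 1.08 RPM in Mov10-/- and 1.13 ± 0.25 RPM in wild type (SD, n = 3), with an adjusted p of 0.165. The genes of these classes with the most RNA-seq reads were Gm25386, with 129 reads, and Gm27972, with 118. The part of poly(A) selection in these levels was not tested.

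Summed markers of spermatids and of Sertoli cells did not overlap between the genotypes either. The summed level of 12 spermatid markers was 44.6 to 168 RPM in Mov10-/- and 190 to 807 RPM in wild type libraries, and over the 11 tested the median difference on the log2 scale was -2.24. 10 Sertoli cell markers summed to 873 to 996 against 697 to 820 RPM, and the 9 tested had a median of 0.34. The sums of spermatocyte markers (1356 to 1846 and 1474 to 1671 RPM), spermatogonia (425 to 513 and 307 to 440), Leydig cells (346 to 527 and 264 to 493) and blood (63.5 to 76.2 and 55.4 to 67.4) overlap. No marker of any list was at 0 over the RNA-seq libraries. edgeR called 0 markers of any list. At an unadjusted p under 0.05, 10 spermatid markers were lower, against 11.9% of all genes, and 4 Sertoli and 1 spermatogonia markers were higher, against 5.57%. DESeq2 called 9 spermatid markers, against 5.51% of genes called lower, and 0 of the other lists. In whole testes, more cells of a type and more RNA per cell cannot be told apart. The part of cell composition in the levels of the named RNAs was not tested.

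Genes for the proteins that make or carry these RNAs showed small differences in RNA level. Of the 95 gene symbols in 5 partner lists, 94 were in the count files, 93 were tested and 0 were called by edgeR or by DESeq2. At an unadjusted p under 0.05, 1 was higher and 0 were lower, where 1127 and 2415 of 20240 genes were. The median log2 fold change over all genes tested was 0.03.

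For RNA polymerase I and ribosomal RNA processing the median was 0.07 over 35 genes, and 8 had groups that did not overlap with Mov10-/- higher, where 11.9% of all genes did. Ubtf, the factor that keeps ribosomal DNA open, was the 1 gene with an unadjusted p under 0.05, at 184 ± 17.9 against 144 ± 25.1 RPM (log2 fold change 0.35, SE 0.13, adjusted p = 0.236 in edgeR). Fbl, the methyltransferase fibrillarin, had a log2 fold change of 0.31, nucleolin (Ncl) 0.21, the initiation factor Rrn3 0.19, Npm1 0.06 and Polr1a, the largest subunit of the polymerase, 0.02. The processing factors Wdr43 and Nop56, named for the smallest p among the rest, had 0.28 and 0.27. Of the list, 6 genes had CLIP-seq reads, 13 in all, where 18.1% of all genes tested had a read.

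For the 7SK complex the median was -0.07 over 7 genes. The inhibitor Hexim1 had a log2 fold change of 0.28 (SE 0.13) and its relative Hexim2 one of -0.48 (SE 0.21), with adjusted p of 0.308 and 0.291 in edgeR. Larp7, which holds the end of 7SK, had -0.07, the capping enzyme Mepce -0.08, the kinase Cdk9 0.20, and its cyclins Ccnt1 and Ccnt2 -0.08 and 0.14. Of the 7, 0 had a CLIP-seq read, at the same background of 18.1%.

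For the signal recognition particle the median was 0.05 over 9 genes, with Srp9 at 0.02, Srp14 at 0.01, Srp54a at 0.30, Srp68 at 0.05 and Srp72 at -0.11. Its receptor subunits Srpr and Srprb had 0.18 each. For RNase MRP and RNase P the median was -0.04 over 11 genes, with Pop4 at -0.51, Rpp38 at -0.33, Pop1 at -0.25, Rpp30 at -0.20, Pop7 at 0.47 and Rpp25 at 0.46. Pop4 and Pop7 had adjusted p of 0.286 and 0.307 in edgeR.

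For RNA polymerase III the median was 0.12 over 31 genes. Polr3a, the largest subunit, had a log2 fold change of 0.14, the initiation factors Brf1 and Brf2 0.06 and -0.16, Snapc1 and Snapc2, which act at the 7SK promoter, 0.17 and 0.27, Gtf3c1 0.12, the TATA-binding protein Tbp -0.19, and Ssb, the La protein that binds new transcripts of the polymerase, 0.14. Their adjusted p ranged from 0.309 to 0.859 in edgeR.

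The genes beside the named RNAs showed no shared direction. Ccdc107, which shares 124 bases with Rmrp on the other strand, had a log2 fold change of 0.59 (SE 0.23), and Ccnb1ip1, which shares 233 bases with Rpph1, one of -0.22 (SE 0.19). Their adjusted p were 0.239 and 0.569 in edgeR. Parp2, 73 bases from Rpph1, had 0.19, C920006O11Rik, next to Rn7sk, -0.11, and Rps29, 108 bases from Rn7s1, 0.20. The 4 miRNA genes within Rn7s1 and Rn7s2 and AY036118 had 0 reads in all 10 libraries.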

How the data were processed

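The authors deposited raw read counts per Ensembl gene, without normalization, for 4 CLIP-seq libraries of wild type and 6 RNA-seq libraries (3 wild type, 3 Mov10-/-) of P21 testes. RNA-seq used a stranded mRNA kit. Per the labels and the study's methods, reads were trimmed, aligned to mm10 with STAR and counted with HTSeq on Ensembl v99; for CLIP-seq the methods refer to earlier work and describe RPM over mapped reads, divided by P21 testis RNA-seq, while the settings of alignment and counting are not given in the sources used here.

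Groups came from the sample titles. Symbols, exons and sequences came from GENCODE M21 (GRCm38), which matched 55240 of 55421 gene IDs; near copies were sought with BLAST 2.17.0. Rows that name no gene (no feature, ambiguous, multiply placed, unaligned) stayed out of library sizes; genes held 28.3% to 47.2% of all RNA-seq and 0.026% to 0.0521% of all CLIP-seq reads. Genotypes were compared with edgeR 4.0.16 in R 4.3.3 (TMM, quasi-likelihood test, Benjamini-Hochberg adjustment over all genes) keeping genes that exceeded 1 RPM in 3 or more of 6 libraries. The p-values measure the spread between 3 testis pairs of each genotype. Alternatives were DESeq2 1.42.0, other scalings, other filters, the replicate number as a block, and leaving out each library. On counts simulated for 20240 genes of this comparison, 173 of 200 genes changed 4-fold were recovered and 4 others called. The simulation used this single size of change, so it does not give the share recovered for smaller changes such as those estimated for the named RNAs. CLIP-seq ratios divided mean CLIP-seq RPM by mean wild type RPM, where both assays held 10 reads or more, with no test. Depth is 5083407 to 9230540 reads on genes in RNA-seq and 3404 to 4934 in CLIP-seq.

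The named RNAs, the partner lists (5) and the marker lists (6) were chosen with earlier results of these data known. Named genes were the 7 RNAs, Mov10, preset members of each partner list with up to 2 further of smallest p, genes overlapping or within 1 kb of a named RNA, the 3 genes most like each by Pearson r, and the 3 other ribosomal or miscellaneous RNA genes with most CLIP-seq reads. The genes of these classes with most RNA-seq reads, and the mitochondrial ribosomal RNAs in CLIP-seq, were named after their values were seen. The sequence of the 7SL genes is not reported here.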

Additional observations from a re-analysis of the deposited data

Results flagged for a closer look

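CLIP-seq replicate 5 stood apart from the other CLIP-seq libraries in the share of its reads that were counted on genes, 0.0521% of all reads against 0.026% to 0.0276% in replicates 1, 2 and 3. It was marked because its distance from the nearest library was large for a group of 4 in Dixon's test; 6 measures were compared and 1 was marked. That test marks about 1 in 20 groups of separate samples by chance, a rate that does not hold here, since replicates 1, 2 and 3 lay closer together than sampling noise and count as 1 sample. The share of reads on CT010467.1 was highest in the same library, at 0.831%. Its part in that share was not tested.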

How the results depend on the processing

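Of the 4 tested RNAs, 0 were called in all alternatives but 2, DESeq2 (1 called, CT010467.1) and the replicate block (2 called). Over all genes, 1 was called, Mov10 itself. With library totals and no further scaling it was 6, with no filter 10, by DESeq2 1283, and 0 to 2 without each library in turn. The paper reports far more protein-coding genes, most of them lower, with edgeR at the same limits of fold change, FDR and RPM. It does not name the edgeR test it used. The cause of these differences was not tested, except that no filter raises the number of genes tested to 36251. The log2 fold change kept its direction under every alternative run, from 0.84 to 1.80 for Gm26917, 0.98 to 2.45 for CT010467.1, 0.28 to 0.66 for Rn7sk and 0.71 to 1.19 for Rn7s2. Both ratios above 10 remained above 10 under the 13 alternatives; with no minimum Rn7sk was added, making 3, on the strength of 1 read. The ratios of CT010467.1 and Gm26917 were 87.7 and 53.8 with TMM over both assays, 77.5 and 44.6 over all reads placed once, 120 and 101 with knockout libraries as the denominator, 52.1 and 31.7 with 0.5 read added to every gene, which by construction adds more reads to a CLIP-seq library than it holds on genes. In CLIP-seq, levels of Rn7sk, Rn7s1 and Rn7s2 under 608 to 881 RPM, depending on the library, were not detectable.

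With the replicate number as a block, edgeR called 181 genes, among them 2 named RNAs, Gm26917 (log2 fold change 1.47, adjusted p = 0.00686) and CT010467.1 (1.99, adjusted p = 0.0257), with Rn7sk at 0.66 and Rn7s2 at 1.07. Only numbers 2 and 3 occur in both genotypes, and the labels do not say that a number marks a shared litter or day. Over all genes tested, same-numbered libraries deviated from their group means with r of -0.463 and -0.344. These values cannot show whether a number marks something shared, and this was not tested.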
